A study of Homo sapiens with 48 samples.

Results

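The BTG and TOB genes of human bronchial epithelial cells were followed across 12 treatment and time groups. The family members considered were BTG1, BTG2, BTG3, TOB1 and TOB2. A gene was represented by the Affymetrix probe sets annotated with its symbol alone, and its main probe set was the one with the highest mean log2(signal + 16) over 48 arrays. Of these 5 genes, 4 had such a probe set (BTG1, BTG3, TOB1 and TOB2, with 12 probe sets between them), out of 19775 genes in all; BTG2 was not analysed here. The 4 main probe sets passed the filter on dim genes, a mean signal of 154.1 on the fitted scale, which left 11865 genes to test. Of the 12 probe sets, 10 passed it.

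Proteins of this family share a conserved N-terminal BTG domain that binds the CNOT7 and CNOT8 catalytic subunits of CCR4-NOT, the main complex that shortens the poly(A) tails of cytoplasmic mRNAs. TOB1 and TOB2 also bind poly(A)-binding protein through their longer C-terminal regions, and so link the deadenylase to the tail it removes. Raised levels of these proteins slow or stop the entry of cultured cells into the cell cycle, hence the name antiproliferative, and several of the genes are induced early after a stimulus. BTG1 is further known as a partner of the arginine methyltransferase PRMT1, and BTG3 as an inhibitor of the transcription factor E2F1.

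The cells were BEAS-2B, an immortalised line from human bronchial epithelium, grown in supplemented, serum-free keratinocyte medium and then kept for 24 h in that medium without its supplements. They received indacaterol, a long-acting β2-adrenoceptor agonist, together with GSK256066, a phosphodiesterase 4 inhibitor (Ind/GSK, both at 10 nM); GS-5759, one molecule with both activities (10 nM); or vehicle. RNA was taken after 1, 2, 6 or 18 h, with 4 replicates in each of the 12 groups, and each sample was hybridised to its own U133 Plus 2.0 array. Drugs of both kinds are known to raise cAMP in such cells, and the comparisons asked how each changed expression against vehicle at the same time and whether they differed from each other. The labels do not say that replicates came from separate cultures, so each p-value reflects only how these samples varied, which may be technical. In RNA from a whole culture, fewer cells of a type and less RNA per cell cannot be told apart.

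The stretch upstream of the start site is shown for BTG1 and TOB1, the family genes that rose with both drugs, because cAMP acts on many promoters through CREB, which binds the element TGACGTCA or its half-site TGACG. Sequences are from RefSeq (GRCh38.p14), 250 bases ending 1 base before the start site, and capitals mark the half-site as TGACG or, on the other strand, CGTCA. All 4 genes lie on the minus strand. The windows are chr12:92145847-92146096 for BTG1 and chr17:50866355-50866604 for the shorter of the TOB1 transcripts.
BTG1: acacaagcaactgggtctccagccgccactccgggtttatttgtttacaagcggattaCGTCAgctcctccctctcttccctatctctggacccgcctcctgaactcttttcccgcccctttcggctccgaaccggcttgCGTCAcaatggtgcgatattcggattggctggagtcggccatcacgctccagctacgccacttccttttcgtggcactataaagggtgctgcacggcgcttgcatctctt
TOB1: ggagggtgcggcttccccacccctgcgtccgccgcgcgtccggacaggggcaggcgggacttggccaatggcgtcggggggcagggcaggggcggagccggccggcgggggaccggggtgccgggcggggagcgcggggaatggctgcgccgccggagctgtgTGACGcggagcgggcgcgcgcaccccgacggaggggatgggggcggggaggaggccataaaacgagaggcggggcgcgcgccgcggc
The BTG1 window held 2 half-sites, with first bases at -192 and -110 from the start, and a TATAAA. The TOB1 window held 1 half-site, at -87, and no TATAAA. The window before the other TOB1 start (chr17:50867979-50868228) held neither motif, nor did those of TOB2 (chr22:41446802-41447051) and BTG3 (chr21:17612902-17613151). None of the 5 windows held the whole element TGACGTCA. Over the 35116 windows of the same length in the same table, 21.2% held the half-site on either strand, 1.65% the whole element (which contains the half-site) and 6.8% TATAAA on the gene's strand. A match in letters describes the sequence only.

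The arrays that carry replicate number 3 stood apart from all others in airway basal keratin genes. KRT14 ran from 186900 to 441000 in the 12 arrays of replicate 3 and from 13.28 to 31.94 in the other 36 arrays. KRT5 ran from 29510 to 36310 in replicate 3 and from 108.3 to 277.4 in the others. The summed signal of the 7 basal markers with a probe set, of 10 listed, was 236300 to 493000 in replicate 3 and 7024 to 10210 elsewhere. KRT14 and KRT5 made up most of that sum in replicate 3. ITGB4, SFN and LAMB3 were also higher there than in every other array. ITGA6 (2006 to 3070) and EGFR (2050 to 2632, with up to 4856 elsewhere) overlapped the other replicates. Of the 7, 6 passed the filter, but KRT14 lay below its signal of 154.1 in all 36 arrays outside replicate 3. Each group holds 1 array of replicate 3. The simple epithelial list summed to 14250 to 21470 in replicate 3 and 8726 to 14960 in the others. Its keratins KRT8 and KRT18 and the cadherin CDH1 passed the filter, with mean signals of 5046, 7846 and 503.4. EPCAM (103.9) and KRT19 (850.1) did not. KRT19 signals varied widely between arrays, and which arrays were high is not given here. The KRT19 mean on the fitted log2 scale was 6.491, below the filter level of 7.41. The leukocyte list had 1 of 5 measured markers above it (LYZ; PTPRC averaged 28.36), the endothelial list 1 of 5 (PECAM1; CDH5 averaged 12.5), the ciliated and club cell list 1 of 6 (MUC5AC; FOXJ1 averaged 17.29), and the mesenchymal list 3 of 8 (VIM, COL1A1 and PDGFRB). Summed signals were 547.7 to 993.6 for leukocyte, 607.5 to 860.0 for endothelial, 297.0 to 495.5 for ciliated and club cell and 19310 to 24780 for mesenchymal markers. Results are for 4 replicates unless it is said that replicate 3 was left out.

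A fit with the replicate number as a block (the replicate block) called many more of the 11865 genes than the fit without it, and its counts are read against its own shares. With Ind/GSK it called 1.99% of all genes as higher and 20.4% as lower at 1 h, 4.6% and 10% at 2 h, 5.53% and 16.5% at 6 h, and 0.674% and 1.89% at 18 h. With GS-5759 it called 1.19% as higher and 0.506% as lower at 1 h, 6.46% and 4.64% at 2 h, 7.48% and 5.39% at 6 h, and 0.143% and 0.0759% at 18 h.

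TOB1 rose early with both drugs, had its highest signals at 1 and 2 h, and was back among the vehicle values at 18 h. At 1 h its signals were 7089, 7558, 9436 and 7455 with Ind/GSK and 8284, 8009, 8125 and 7353 with GS-5759, against 5269, 5278, 4533 and 4528 with vehicle (replicates 1 to 4). The treated arrays all lay above the vehicle arrays with either drug. The log2 difference from vehicle was 0.68 ± 0.087 (SE) with Ind/GSK (1.60-fold, adjusted p = 4.29e-06) and 0.70 ± 0.087 with GS-5759 (1.62-fold, adjusted p = 2.27e-06). TOB1 ranked 5 by p among all genes in each of these comparisons, and the difference was positive within all 4 replicate numbers (0.43 to 1.06 with Ind/GSK and 0.60 to 0.84 with GS-5759). Among all 11865 genes tested at 1 h, the share called higher was 0.48% with Ind/GSK and 0.312% with GS-5759, and the share called lower was 1.99% and 0.00843%; 1 of the 4 family genes rose with each and 0 fell. Groups did not overlap, in either direction, for 8.22% of genes with Ind/GSK and 2.59% with GS-5759. The median log2 difference of all genes was -0.11 with Ind/GSK at 1 h, so that TOB1 stood further above that median than above 0, and -0.02 with GS-5759. Other scalings removed that shift and turned the overall split with Ind/GSK at 1 h: 57 genes rose and 236 fell as deposited, 102 rose and 14 fell when arrays were centred on their 75th percentile, and TOB1 was called as higher under both. Without replicate 3 the TOB1 differences were 0.55 (adjusted p = 4.02e-04) with Ind/GSK and 0.65 (adjusted p = 2.46e-05) with GS-5759. With the spread taken from the compared groups alone, the Ind/GSK call at 1 h was lost (adjusted p = 0.148).

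The rise of TOB1 was as large at 2 h. Its signals were 9004, 6924, 7819 and 8311 with Ind/GSK and 8101, 8167, 7401 and 7959 with GS-5759, against 5024, 5478, 4436 and 5139 with vehicle. Again no treated array reached down to the vehicle arrays. The log2 differences were 0.67 ± 0.087 with Ind/GSK (1.59-fold, adjusted p = 1.58e-06) and 0.66 ± 0.087 with GS-5759 (1.58-fold, adjusted p = 2.02e-06), and 0.62 (adjusted p = 1.96e-05) and 0.63 (adjusted p = 1.29e-05) without replicate 3. At 2 h TOB1 and BTG1 were the 2 of 4 family genes that rose with each drug, and 0 fell. Over all genes the share called higher was 1.69% with Ind/GSK and 1.97% with GS-5759, the share called lower 2.81% and 1.08%, and groups did not overlap for 8.62% and 8.64%. With 75th percentile centring the GS-5759 split of 234 risen and 128 fallen genes became 214 and 274. The second TOB1 probe set, 228834_at, gave larger differences in a fit over all probe sets: 0.94 and 1.26 with Ind/GSK and 1.03 and 1.21 with GS-5759 at 1 and 2 h, with adjusted p between 7.10e-08 and 7.45e-05. Its signals at 2 h were 1695 to 1983 with Ind/GSK and 1605 to 1864 with GS-5759, against 645.7 to 856.0 with vehicle. Without replicate 3 its differences were 0.72 and 1.21 with Ind/GSK and 0.87 and 1.18 with GS-5759 at 1 and 2 h, all called. Over the 48 arrays the probe sets had a correlation of 0.956.

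**Figure D1:**
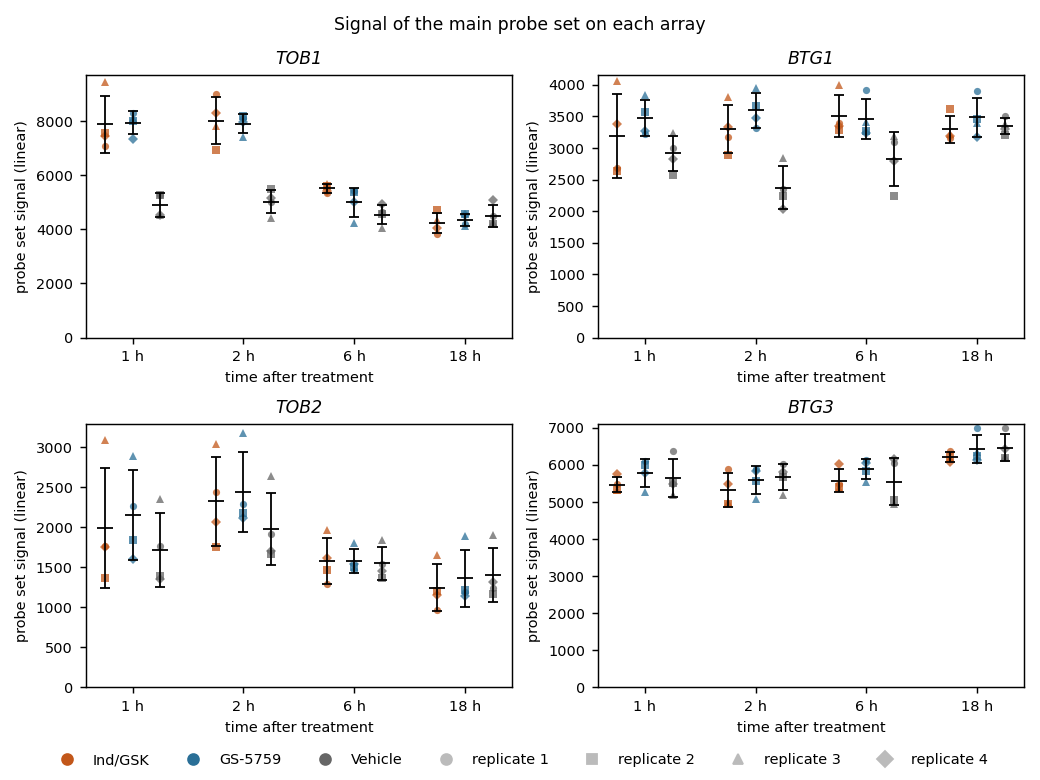
Signal of the main probe set (linear scale, vertical axis) of TOB1, BTG1, TOB2 and BTG3 on each of 48 arrays, by time (horizontal axis) and treatment (colour); marker shapes are replicate numbers and black bars are mean ± SD (n = 4). The 8 treated TOB1 arrays at 1 h and the 8 at 2 h lie between 6924 and 9436, above all vehicle arrays, and triangles (replicate 3) are the highest TOB2 points in every group.

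By 6 h the TOB1 response had shrunk. Signals were 5334, 5606, 5686 and 5427 with Ind/GSK and 5411, 5361, 4251 and 4993 with GS-5759, against 4622, 4572, 4053 and 4940 with vehicle. The Ind/GSK arrays all lay above the vehicle arrays, and the GS-5759 arrays overlapped them. The Ind/GSK difference of 0.28 ± 0.087 missed the threshold (adjusted p = 0.0502). It passed with the replicate number as a block (adjusted p = 0.0151) and was 0.21 (adjusted p = 0.163) without replicate 3. The Ind/GSK difference also passed with 75th percentile centring (0.31, adjusted p = 0.0286) and quantile normalization (0.31, adjusted p = 0.0244). A variance trend, a pseudocount of 64 and the 60th percentile filter gave adjusted p of 0.0423, 0.0496 and 0.0375. It was not called under the other settings that kept all arrays. The GS-5759 difference was 0.13 ± 0.087 (adjusted p = 0.575). At 18 h signals were 3832 to 4709 with Ind/GSK and 4141 to 4569 with GS-5759, against 4183 to 5074 with vehicle, and the groups overlapped. The differences of -0.09 (95% interval -0.27 to 0.09) and -0.04 (-0.22 to 0.13) had adjusted p = 1.00 each. At 6 h the share of all genes called higher was 1.28% with Ind/GSK and 1.26% with GS-5759, the share called lower 3.73% and 0.615%, and groups did not overlap for 9.55% and 8.58%. With 75th percentile centring 199 rose and 276 fell with Ind/GSK (152 and 443 without), and 138 rose and 201 fell with GS-5759 (150 and 73 without); in the fit without centring none of the 4 family genes was called with either drug. At 18 h 0.0169% were called higher and 0.0337% lower with Ind/GSK, 0% either way with GS-5759 (limma; 313 genes had an unadjusted p under 0.05), groups did not overlap for 2.51% and 2.37%, and again 0 of 4 family genes were called.

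The change of the response itself was tested for the mean of both drugs. The TOB1 response fell by 0.46 ± 0.11 on the log2 scale at 6 h relative to 2 h (adjusted p = 0.0253; adjusted p = 0.0332 without replicate 3), 1 of 4 family genes against 0.708% of all genes called. The change was -0.02 ± 0.11 at 2 h relative to 1 h (adjusted p = 1.00; 0.27% of genes called) and -0.27 ± 0.11 at 18 h relative to 6 h (adjusted p = 0.326; 0.556% called). The call at 6 h against 2 h was lost without replicate 1, 2 or 4 of vehicle at 6 h or replicate 3 of vehicle at 2 h, with adjusted p of 0.061 to 0.0965. It was also lost when every probe set was tested (adjusted p = 0.0541) and with the spread of the compared groups alone (adjusted p = 0.0595).

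In the order of its mean signals TOB1 formed 2 blocks. Ind/GSK at 2 h (8014 ± 874, SD, n = 4), GS-5759 at 1 h (7943 ± 409), GS-5759 at 2 h (7907 ± 348) and Ind/GSK at 1 h (7884 ± 1050) came first and overlapped one another. A gap without overlap separated them from Ind/GSK at 6 h (5513 ± 161). From there to the lowest group, Ind/GSK at 18 h (4234 ± 380), each group overlapped its neighbour, and vehicle held 5019 ± 434 at 2 h, 4902 ± 429 at 1 h, 4547 ± 367 at 6 h and 4504 ± 400 at 18 h.

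**Figure D2:**
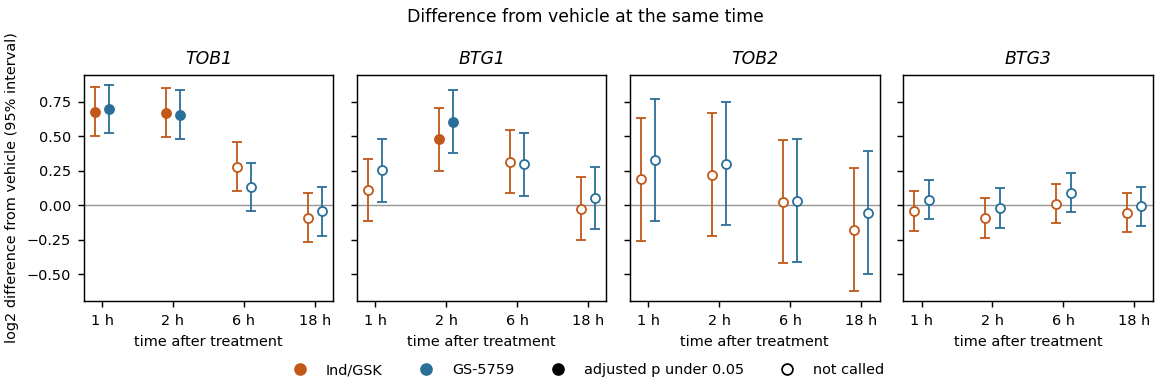
Log2 difference from vehicle at the same time (vertical axis) with 95% intervals from the fit, by time (horizontal axis), for TOB1, BTG1, TOB2 and BTG3; Ind/GSK stands left of GS-5759, and filled points have an adjusted p under 0.05. Filled points are TOB1 at 1 and 2 h (0.66 to 0.70) and BTG1 at 2 h (0.48 and 0.61); the TOB2 intervals are the widest.

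BTG1 rose with both drugs at 2 h. Its signals were 3174, 2892, 3813 and 3325 with Ind/GSK and 3309, 3657, 3953 and 3470 with GS-5759, against 2350, 2248, 2844 and 2041 with vehicle. All treated arrays exceeded all vehicle arrays. The differences were 0.48 ± 0.11 with Ind/GSK (1.39-fold, adjusted p = 0.0074) and 0.61 ± 0.11 with GS-5759 (1.52-fold, adjusted p = 5.13e-04), and 0.50 (adjusted p = 0.00512) and 0.65 (adjusted p = 1.92e-04) without replicate 3. Within the replicate numbers the difference was 0.36 to 0.70 with Ind/GSK and 0.47 to 0.76 with GS-5759. The second probe set, 200920_s_at (r = 0.917 with the main one over 48 arrays), gave 0.61 (adjusted p = 0.0014) and 0.66 (adjusted p = 3.69e-04), and 0.57 (adjusted p = 0.00254) and 0.68 (adjusted p = 1.89e-04) without replicate 3. The Ind/GSK call was lost without replicate 3 of Ind/GSK at 2 h (0.41, adjusted p = 0.0578) and with the spread of the compared groups alone (adjusted p = 0.156); the GS-5759 call was lost when the 3 BTG1 probe sets, one of them below the filter, were averaged (0.31, adjusted p = 0.0982).

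The vehicle level of BTG1 was itself lowest at 2 h. It averaged 2916 ± 281 at 1 h, 2371 ± 341 at 2 h, 2829 ± 429 at 6 h and 3351 ± 126 at 18 h (SD, n = 4). Against vehicle at 1 h, vehicle at 2 h differed by -0.30 ± 0.11, which missed the threshold (adjusted p = 0.14) and passed it with the replicate block (adjusted p = 0.022); without replicate 3 it was -0.34 (adjusted p = 0.054). The Ind/GSK means were 3190 ± 671, 3301 ± 386, 3506 ± 332 and 3297 ± 213, and the GS-5759 means 3476 ± 290, 3597 ± 276, 3461 ± 315 and 3485 ± 307, at 1, 2, 6 and 18 h. The highest mean of the 12 was GS-5759 at 2 h and the lowest was vehicle at 2 h, and every group overlapped its neighbour in that order.

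At 1 h BTG1 gave 2682, 2643, 4061 and 3375 with Ind/GSK and 3225, 3570, 3844 and 3265 with GS-5759, against 3007, 2579, 3244 and 2833 with vehicle. The groups overlapped, and the differences were 0.11 ± 0.11 (adjusted p = 0.597) and 0.25 ± 0.11 (adjusted p = 1.00; unadjusted p = 0.0302). At 6 h BTG1 gave 3397, 3285, 4000 and 3344 with Ind/GSK and 3920, 3268, 3415 and 3240 with GS-5759, against 3096, 2234, 3185 and 2802 with vehicle. Treated arrays all lay above vehicle arrays, but neither 0.32 ± 0.11 (adjusted p = 0.10) nor 0.30 ± 0.11 (adjusted p = 0.20) passed the threshold. With the replicate block both did (adjusted p = 0.0116 with Ind/GSK and 0.0275 with GS-5759), and without replicate 3 the differences were 0.31 (adjusted p = 0.0878) and 0.36 (adjusted p = 0.0711). The Ind/GSK difference also passed with 75th percentile centring (0.35, adjusted p = 0.0434) and quantile normalization (0.36, adjusted p = 0.0267). The GS-5759 difference passed under neither scaling. At 18 h the differences were -0.02 and 0.05. The response of BTG1 changed by 0.36 ± 0.14 at 2 h relative to 1 h (adjusted p = 0.454), -0.23 ± 0.14 at 6 h relative to 2 h (adjusted p = 0.734) and -0.29 ± 0.14 at 18 h relative to 6 h (adjusted p = 0.505).

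Without the replicate block TOB2 was not called in any comparison, and it had the widest spread between replicates of the 4 genes on the log2 scale. At 2 h its signals were 2442, 1749, 3039 and 2069 with Ind/GSK and 2297, 2175, 3177 and 2114 with GS-5759, against 1916, 1672, 2640 and 1704 with vehicle. The groups overlapped with both drugs. Replicate 3 was the highest TOB2 array in 12 of 12 groups, at 1.2 to 1.89 times (median 1.5) the mean of the other replicates; the basal keratin genes were high in the same arrays, and their part in the TOB2 signal was not tested. Within the replicate numbers the GS-5759 difference at 2 h was 0.26, 0.38, 0.27 and 0.31, higher in 4 of 4. The fitted difference of 0.30 ± 0.22 had an adjusted p = 0.68, which became adjusted p = 0.047 with the replicate block and was 0.211 (difference 0.32) without replicate 3. The second probe set, 221496_s_at, gave 0.49 (adjusted p = 0.394; replicate block adjusted p = 0.00613). With Ind/GSK at 2 h the TOB2 difference was 0.22 ± 0.22 (adjusted p = 0.772), also positive in 4 of 4 replicate numbers.

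**Figure D3:**
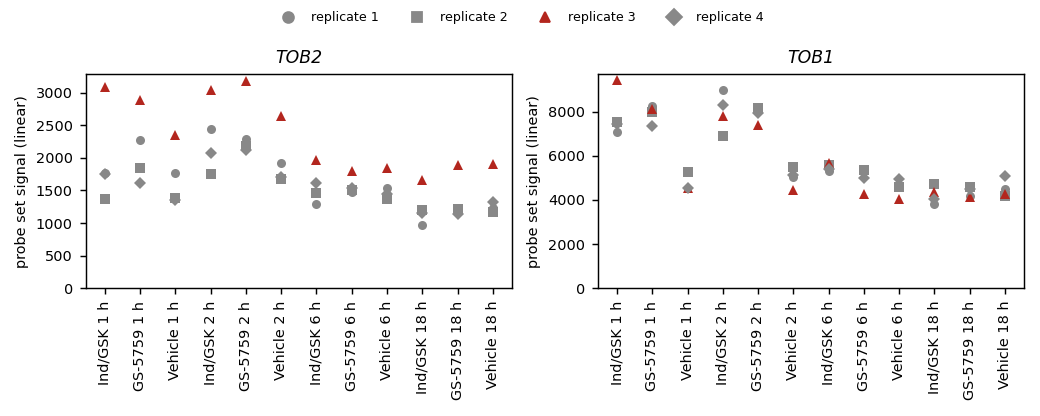
Signal (linear scale, vertical axis) of TOB2 and TOB1 on each array, by group (horizontal axis), with replicate 3 as red triangles and the other replicates in grey. Replicate 3 is the highest TOB2 array in all 12 groups, and the highest TOB1 array in 2 of 12.

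At 1 h the TOB2 differences were 0.19 ± 0.22 with Ind/GSK (adjusted p = 0.65) and 0.33 ± 0.22 with GS-5759 (adjusted p = 1.00), the second positive in 4 of 4 replicate numbers (0.25 to 0.40). At 6 h they were 0.03 and 0.03, and at 18 h -0.18 and -0.05. The TOB2 means were highest with GS-5759 at 2 h (2441 ± 497), Ind/GSK at 2 h (2325 ± 554), GS-5759 at 1 h (2153 ± 564) and Ind/GSK at 1 h (1995 ± 751), and lowest with Ind/GSK at 18 h (1245 ± 295); vehicle held 1714 ± 466, 1983 ± 451, 1549 ± 210 and 1408 ± 339 at 1, 2, 6 and 18 h. Every group overlapped its neighbour. Vehicle at 18 h differed from vehicle at 1 h by -0.27 ± 0.22 (adjusted p = 0.614; replicate block adjusted p = 0.0485; without replicate 3 adjusted p = 0.23). In the fit without the block, the TOB2 intervals at 2 h reached 0.67 with Ind/GSK and 0.75 with GS-5759. That fit leaves the replicate pairing out. Within the replicate numbers the TOB2 differences at 2 h were 0.06 to 0.35 with Ind/GSK and 0.26 to 0.38 with GS-5759. The fitted BTG1 differences at 2 h were 0.48 and 0.61.

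BTG3 stayed within a narrow range and was not called with either drug at any time. At 2 h its signals were 5903, 4935, 4997 and 5484 with Ind/GSK and 5905, 5578, 5072 and 5837 with GS-5759, against 6032, 5676, 5195 and 5800 with vehicle. The groups overlapped. Over the 8 drug comparisons the log2 differences ran from -0.09 (Ind/GSK at 2 h, adjusted p = 0.625) to 0.09 (GS-5759 at 6 h, adjusted p = 0.67), with SE 0.070. The 95% intervals at 2 h were -0.23 to 0.05 with Ind/GSK and -0.16 to 0.12 with GS-5759. The highest means were those at 18 h: 6218 ± 128 with Ind/GSK and 6432 ± 384 with GS-5759, against 6464 ± 366 with vehicle; the lowest was Ind/GSK at 2 h (5330 ± 454), and every group overlapped its neighbour in the order. Vehicle at 18 h (6991, 6191, 6243 and 6430) was above vehicle at 1 h (6375, 5514, 5191 and 5481) by 0.20 ± 0.070, which missed the threshold (adjusted p = 0.0902), passed it with the replicate block (adjusted p = 0.00248), passed it without replicate 1 of vehicle at 1 h (0.26, adjusted p = 0.0321), and was 0.18 (adjusted p = 0.167) without replicate 3. The suffix of the main BTG3 probe set, 213134_x_at, marks probes that may bind other transcripts; the probe set 205548_s_at had a correlation of 0.958 with it and gave differences between -0.07 and 0.13.

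The remaining probe sets were dim or unlike the main ones. BTG1 1559975_at (mean signal 48.43, correlation with the main probe set 0.005) and TOB2 234720_s_at (73.21, 0.299) lay below the filter. BTG3 1556213_a_at (214.8, 0.322) and 215425_at (203.2, -0.209) passed it. None of these 4 was called in a drug comparison, though 215425_at passed with the replicate block at 1 h with Ind/GSK (-0.23, adjusted p = 0.0388, against 0.277 without the block). Neither probe set of BTG4, the family gene known from oocytes, passed the filter (mean signals 76.36 and 13.84).

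**Figure D4:**
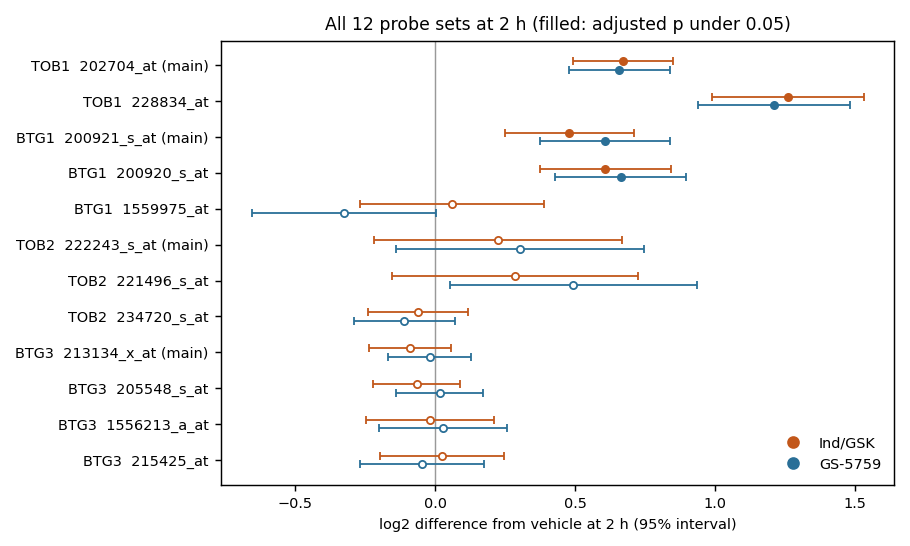
Log2 difference from vehicle at 2 h (horizontal axis) with 95% intervals for each of the 12 probe sets (rows), Ind/GSK above GS-5759; filled points have an adjusted p under 0.05 in a fit over all probe sets. Filled are both TOB1 and 2 of 3 BTG1 probe sets, with differences of 0.48 to 1.26.

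GS-5759 was also set against Ind/GSK directly at the 4 times. None of the 4 family genes was called at any time, nor was any other gene: 0% at 1, 2, 6 and 18 h by limma, with 709, 194, 395 and 41 genes at an unadjusted p under 0.05. The differences of GS-5759 minus Ind/GSK for TOB1 were 0.02 (95% interval -0.16 to 0.19), -0.01 (-0.19 to 0.16), -0.15 (-0.32 to 0.03) and 0.04 (-0.13 to 0.22) at 1, 2, 6 and 18 h. For BTG1 they were 0.14 (-0.09 to 0.37), 0.13 (-0.10 to 0.35), -0.02 (-0.25 to 0.21) and 0.08 (-0.15 to 0.31). Averaged over the 4 times the difference was -0.02 ± 0.043 for TOB1, 0.08 ± 0.056 for BTG1, 0.09 ± 0.11 for TOB2 and 0.07 ± 0.035 for BTG3, where 0.0759% of all genes were called (6 higher and 3 lower, but 0 and 36 with 75th percentile centring). BTG3 missed the threshold (adjusted p = 0.288) and passed it with the replicate block (adjusted p = 0.0414), which called 19.7% of all genes here. Its 95% interval was -0.001 to 0.14, and the median of all genes in this comparison was 0.06. The drug comparisons above share their vehicle arrays.

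In vehicle cultures 2.72% of all genes were called at 2 h, 4.8% at 6 h and 5.72% at 18 h, each against 1 h, and 0 of 4 family genes at any of them; the replicate block called 17.9%, 21.1% and 23.3% of all genes and 1, 0 and 2 family genes. Of all genes 76 rose and 247 fell at 2 h, 72 and 498 at 6 h, and 298 and 381 at 18 h, against 282 and 44, 319 and 265, and 424 and 399 with 75th percentile centring. TOB1 differed from vehicle at 1 h by 0.03, -0.11 and -0.12 at 2, 6 and 18 h, with adjusted p of 0.918, 0.606 and 0.538. Among the CCR4-NOT genes CNOT6 and CNOT8, which encode catalytic subunits, were called as higher in vehicle at 18 h than at 1 h.

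The genes whose products work with BTG and TOB proteins were looked up by list. All 12 genes listed for CCR4-NOT were tested, and 1 was called with a drug at 1 or 2 h: CNOT4, which encodes a ubiquitin ligase, fell. It averaged 702.1 ± 74.8 with Ind/GSK and 779.0 ± 24.96 with GS-5759 at 1 h, against 927.9 ± 19.41 with vehicle. At 2 h it averaged 659.5 ± 50.58 with Ind/GSK and 682.6 ± 30.96 with GS-5759, against 871.4 ± 46.55 with vehicle. The differences were -0.40 with Ind/GSK at 1 h (adjusted p = 0.00308), -0.40 with Ind/GSK at 2 h (adjusted p = 0.00114) and -0.34 with GS-5759 at 2 h (adjusted p = 0.00565); with GS-5759 at 1 h it was -0.25 (adjusted p = 0.385; replicate block adjusted p = 0.032). The list median at 2 h was -0.07 with Ind/GSK and 0.02 with GS-5759, beside -0.05 and -0.001 for all genes. At 1 h it was -0.15 with Ind/GSK and -0.05 with GS-5759, beside -0.11 and -0.02 for all genes. With Ind/GSK at 1 h, 236 of all genes fell as deposited, 14 with 75th percentile centring and 18 with quantile normalization. The CNOT4 difference under these scalings is not given here. In the fit without the block and with all replicates, no catalytic subunit gene was called with a drug. For the block and for the fit without replicate 3, only counts are given. With the replicate block 7 of the 12 fell with Ind/GSK at 1 h and 4 at 6 h, when it called 20.4% and 16.5% of all genes as lower. The block gave 1 risen with GS-5759 at 6 h, when it called 7.48% of all genes as higher. Over all genes it called 236 as risen and 2416 as fallen with Ind/GSK at 1 h. Without replicate 3, 2 of the 12 fell with Ind/GSK at 1 h.

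Of 15 tested genes for poly(A)-binding, other deadenylase and decapping proteins (16 listed), DCP1B, a decapping cofactor, fell at 2 h by 0.50 with Ind/GSK (adjusted p = 3.39e-04) and 0.40 with GS-5759 (adjusted p = 0.00447); the list medians were -0.07 and -0.01. With the block 6 of them fell at 1 h, 4 at 2 h and 3 at 6 h with Ind/GSK, when it called 20.4%, 10% and 16.5% of all genes as lower, and 1 rose and 1 fell with GS-5759 at 6 h. Without replicate 3, 2 fell with Ind/GSK at 6 h, against 0 with it. DCP1B and CNOT4 were called as fallen at 2 h with both drugs without replicate 3 as well.

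A further list held RNA-binding proteins that bring CCR4-NOT to chosen mRNAs. Of its 13 tested genes (17 listed), 1 rose with each drug at 1 h and 4 rose with each at 2 h, and 0 fell. The share of all genes called higher was 0.48% with Ind/GSK and 0.312% with GS-5759 at 1 h, and 1.69% and 1.97% at 2 h. CPEB4, a cytoplasmic polyadenylation element binding protein, averaged 3250 ± 975.3 with Ind/GSK and 3279 ± 729 with GS-5759 at 2 h, against 943.3 ± 168.6 with vehicle, a rise of 1.73 ± 0.24 (adjusted p = 4.37e-06) and 1.77 ± 0.24 (adjusted p = 2.70e-06), and of 1.66 and 1.69 without replicate 3. ZFP36L1, which binds AU-rich elements, averaged 2666 ± 772.9 with Ind/GSK and 2756 ± 316 with GS-5759 at 1 h, against 1562 ± 58.87 with vehicle, a rise of 0.72 (adjusted p = 0.00419) and 0.81 (adjusted p = 0.00124); without replicate 3 it was 0.58 (adjusted p = 0.0191) and 0.74 (adjusted p = 0.00257). It was also called at 2 h with both drugs (0.52 each, adjusted p = 0.0295 and 0.0379) and at 6 h with Ind/GSK (0.54, adjusted p = 0.0218), but these 3 calls were lost without replicate 3 (adjusted p = 0.127, 0.0905 and 0.166). ZFP36L1 was lower in vehicle at 6 h (1103 ± 153.1) than in vehicle at 1 h (-0.51, adjusted p = 0.0349). CPEB2 rose at 2 h by 0.42 with Ind/GSK (adjusted p = 0.02) and 0.51 with GS-5759 (adjusted p = 0.00413), and without replicate 3 by 0.40 and 0.51, both called, and RC3H1, the fourth, named after its values were seen, by 0.40 (adjusted p = 0.00399) and 0.36 (adjusted p = 0.014). RC3H1 was not called with GS-5759 without replicate 3 (adjusted p = 0.102) or after quantile normalization (adjusted p = 0.0518). The list medians at 2 h were 0.14 with Ind/GSK and 0.15 with GS-5759. Without replicate 3, 2 rose with each drug at 1 h, and 3 with Ind/GSK and 2 with GS-5759 at 2 h. With the block 3 rose with each drug at 1 h and at 6 h, and CPEB4 was among them. The block called 1.99% of all genes as higher with Ind/GSK and 1.19% with GS-5759 at 1 h, and 5.53% and 7.48% at 6 h. It gave 1 fallen with Ind/GSK at each of 1, 2 and 6 h, when it called 20.4%, 10% and 16.5% of all genes as lower.

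**Figure D5:**
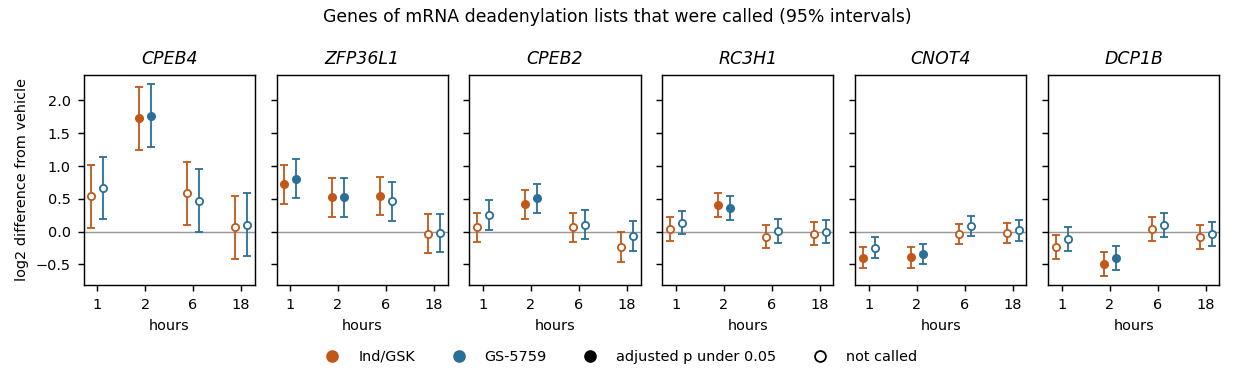
Log2 difference from vehicle (vertical axis, 95% intervals) at 1, 2, 6 and 18 h (horizontal axis) for 6 genes of the deadenylation lists that were called with a drug; Ind/GSK stands left of GS-5759 and filled points have an adjusted p under 0.05. CPEB4 reaches 1.73 and 1.77 at 2 h, while CNOT4 and DCP1B lie at -0.34 to -0.50 at that time.

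The remaining lists held few called genes. Of 14 tested genes for G1 cyclins, their kinases, RB proteins and E2F factors (15 listed), CDK4, the kinase partner of D cyclins, fell by 0.25 with Ind/GSK at 6 h (adjusted p = 0.00153; -0.26, adjusted p = 0.00354 without replicate 3). It averaged 5881 ± 224.6 with Ind/GSK and 6320 ± 104.2 with GS-5759 at 6 h, against 7013 ± 259 with vehicle. Vehicle at 6 h was itself above vehicle at 1 h (5941 ± 319.3) by 0.24 (adjusted p = 0.00307). With GS-5759 at 6 h it was -0.15 relative to vehicle (adjusted p = 0.138; replicate block adjusted p = 0.0112; 75th percentile centring adjusted p = 0.0318). No other member of that list was called with a drug. The block gave 1 risen with each drug at 2 h, when it called 4.6% of all genes as higher with Ind/GSK and 6.46% with GS-5759. It gave 1 fallen with Ind/GSK at 18 h, when it called 1.89% of all genes as lower. Of 15 tested p53 target genes (17 listed), 0 were called with either drug. The block gave 1 fallen gene with Ind/GSK at 1 h, when it called 20.4% of all genes as lower. At 2 h it gave 1 risen with Ind/GSK and 3 with GS-5759, when it called 4.6% and 6.46% of all genes as higher. At 6 h it gave 4 risen with GS-5759, when it called 7.48% of all genes as higher, and 3 risen beside 1 fallen with Ind/GSK, at 5.53% and 16.5% of all genes. Of 10 tested partner and modifier genes (11 listed, among them PRMT1, HOXB9 and SMAD genes), 0 were called. The block gave 1 fallen at 1 h, 1 risen and 2 fallen at 6 h and 1 fallen at 18 h, all with Ind/GSK. Of all genes it called 20.4% as lower at 1 h, 5.53% as higher and 16.5% as lower at 6 h, and 1.89% as lower at 18 h. With GS-5759 it gave 1 risen at 6 h, when it called 7.48% of all genes as higher.

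Among known cAMP-CREB target genes more were called at 1 and 2 h than in the lists above. Like the others, this list was chosen with earlier results of these data known. Whether CREB has a part in the TOB1 or BTG1 change was not tested. Of 10 tested (16 listed), 5 rose with each drug at 1 h, 8 with each at 2 h, 4 with Ind/GSK and 2 with GS-5759 at 6 h, and 0 at 18 h. Without replicate 3 these counts were 6 with each drug at 1 h, 8 with each at 2 h, 3 with Ind/GSK and 2 with GS-5759 at 6 h, and 0 at 18 h. The list medians were 0.85 with Ind/GSK and 1.05 with GS-5759 at 1 h, and 1.42 and 1.52 at 2 h (0.80, 1.03, 1.18 and 1.34 without replicate 3), whereas TOB1 changed by 0.66 to 0.70 at those times. NR4A2, a nuclear receptor, rose by 4.08 with Ind/GSK and 4.15 with GS-5759 at 1 h (3.55 and 3.82 without replicate 3), and SIK1, a kinase that restrains CREB coactivators, by 2.23 and 2.36 (2.21 and 2.37). At 2 h PDE4D, which breaks down cAMP, rose by 2.41 with Ind/GSK and 2.43 with GS-5759 (2.27 and 2.35 without replicate 3). With the block 9 rose with each drug at 1 h and 10 with each at 2 h. It gave 7 risen with Ind/GSK and 6 with GS-5759 at 6 h. The share of all genes that the block called as higher was 1.99% with Ind/GSK and 1.19% with GS-5759 at 1 h. It was 4.6% and 6.46% at 2 h, and 5.53% and 7.48% at 6 h. Without the block the share was 0.48% and 0.312% at 1 h, 1.69% and 1.97% at 2 h, and 1.28% and 1.26% at 6 h.

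Across the 12 group means, TOB1 and TOB2 had a Pearson correlation of 0.884, whereas BTG1 had 0.274 with TOB1 and -0.06 with TOB2. BTG3 had -0.64 with TOB1, -0.73 with TOB2 and 0.275 with BTG1. The tested genes most like TOB1 by this measure were MAP3K8 (0.983), FOXC2 (0.98) and IL6 (0.976), and those most like BTG1 were NRIP1 (0.923), NAV2 (0.899) and SKIL (0.899). These are descriptions over 12 group means that share arrays, drugs and times.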

How the data were processed

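Probe set intensities on a linear scale were deposited by the authors, whose tools were, per the submitters' processing notes, PLIER and the Affymetrix Expression Console; versions and the normalization between arrays are not given in the sources used here. Array medians of log2(value + 16) ran from 6.999 to 7.173, correlations between arrays from 0.9684 to 0.9966, no columns were identical and no value was 0. The number of arrays limits the precision.

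Of 54675 probe sets, 41091 had 1 symbol, 1801 several, and 41037 were matched to RefSeq symbols through gene identifiers. The brightest single-symbol probe set stood for each of 19775 genes. Genes above the 40th percentile (log2 7.41) were tested, 11865 in number; a fit of all single-symbol probe sets served the other family probe sets.

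Group means over all 48 arrays were fitted under R 4.3.3 with lmFit and eBayes of limma 3.58.1 (no trend, 36 residual and 2.359 prior degrees of freedom), two-sided, with Benjamini-Hochberg adjustment within each of 19 comparisons, and calls needed an adjusted p below 0.05. A fold change is on the log2(value + 16) scale, which understates changes of dim genes. "Response" is the mean difference of both drugs from vehicle. Figures were drawn with matplotlib 3.10.9. The fit was tested on simulated data with independent noise on each array. Those data held no differences between replicate numbers, so they cannot show the error rate of the fit under the pairing described below.

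Replicate numbers come from the sample titles. After group means were removed, 32 of 32 same-numbered pairs of arrays correlated above 0.1 (0.3 to 0.94), so the numbers were taken to pair the samples; different-numbered pairs ran from -0.842 to 0.756. The replicate number as a block was an alternative to the main model, which holds no replicate term. Calls and intervals given without mention of the block leave this pairing out, so their spread includes differences between replicate numbers. Other alternatives were the pseudocount, filters, scalings, probe set rules, variance trend, the groups in the fit and leaving out arrays. Leaving out replicate 3 throughout, alone or with the block, and a percentile over all probe sets were chosen after seeing the data.

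The family members and gene lists were chosen with earlier results of these data known. All family probe sets were named, with up to 3 genes per list called in a drug comparison (all called genes of the CCR4-NOT list). The 3 genes most correlated with each called member were named too. RC3H1 and the genes that changed in vehicle over time were added after their values were seen. BTG2 had no single-symbol probe set in the annotation used and is not reported.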

Additional observations from a re-analysis of the deposited data

Results flagged for a closer look

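In 4 of 48 sets of 4 replicates one array lay far from the other 3, by the share of the range that its gap to the nearest takes up; chance gives about 1 set in 20. TOB2 with GS-5759 at 18 h had its highest array in replicate 3 (1889, against 1145 to 1217 in the others; share 0.879). BTG1 with Ind/GSK at 18 h was highest in replicate 2 (3614, against 3164 to 3224; 0.859). BTG1 with Ind/GSK at 6 h was highest in replicate 3 (4000, against 3285 to 3397; 0.83). BTG3 with Ind/GSK at 6 h was highest in replicate 4 (6038, against 5379 to 5481; 0.837). The response of TOB1 differed between times, by -0.456 at 6 h relative to 2 h on the log2 scale (adjusted p = 0.0253).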

How the results depend on the processing

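Of 1064 log2 differences of single family genes recomputed under other settings, 1040 stayed on the same side of the threshold, 5 lost a call, 19 gained one and 0 reversed while called; of 896 with 1 array left out, 889 stayed, 5 lost a call and 2 gained one. The number of family genes called changed as follows. With Ind/GSK at 6 h it was 0, and 1 with a pseudocount of 64, with the 60th percentile filter, with the variance trend and with the replicate block without replicate 3, and 2 with 75th percentile centring, quantile normalization and the replicate block; leaving out 1 array gave 0 to 1. The mean of all probe sets gave 1 in place of 2 with GS-5759 at 2 h. For the response at 6 h against 2 h, testing every probe set or only the groups compared gave 0 in place of 1, and leaving out 1 array gave 0 to 1. Only the groups compared gave 0 in place of 1 with Ind/GSK at 1 h and 1 in place of 2 with Ind/GSK at 2 h; leaving out 1 array gave 1 to 2 in the last. The replicate block, with and without replicate 3, gave 1 and 1 in place of 0 with GS-5759 at 6 h, 1 and 1 in place of 0 for vehicle at 2 h against 1 h, and 2 and 1 in place of 0 for vehicle at 18 h against 1 h, where leaving out 1 array gave 0 to 1; the block gave 1 in place of 0 for GS-5759 against Ind/GSK over 4 times. With GS-5759 at 2 h the block gave 3 in place of 2. It changed no other family gene's call in the main probe sets. Counts over all 11865 genes moved as well. With Ind/GSK at 6 h, 152 rose in the main fit, 199 with 75th percentile centring, 235 with quantile normalization and 656 with the block. Of all genes the block called 7.48% as higher with GS-5759 at 6 h and 6.46% at 2 h. It called 17.9% for vehicle at 2 h and 23.3% at 18 h, each against 1 h. For GS-5759 against Ind/GSK over 4 times it called 19.7%. With only the groups compared, 8 of all genes rose with Ind/GSK at 1 h and 64 at 2 h, against 57 and 201 in the main fit. For the response at 6 h against 2 h, 22 rose and 29 fell with only the groups compared, against 46 and 38 in the main fit. The causes were not tested, except that the fits of the compared groups alone use fewer arrays.

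Counts over all genes moved more. Quantile normalization gave 81 risen and 18 fallen with Ind/GSK at 1 h, against 57 and 236, and the compared groups alone 8 and 0. The block gave 236 risen and 2416 fallen there, 766 and 551 with GS-5759 at 2 h (234 and 128 without it), and 2230 and 111 for GS-5759 against Ind/GSK over 4 times (6 and 3 without it). Over the alternatives other than leaving out 1 array, genes risen with Ind/GSK ranged from 64 to 546 at 2 h and 9 to 656 at 6 h, and with GS-5759 from 17 to 141 at 1 h and 12 to 887 at 6 h. No family gene that was called changed direction under either scaling.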
